A study of Mus musculus with 4 samples.

Results

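Malat1-rich cells were droplets in which the long noncoding RNA Malat1 made up at least 3% of the counted molecules. They numbered 709 of the 22049 cells kept from 39891 barcodes. The assay tags every captured RNA with a droplet barcode and a random molecule label (unique molecular identifier, UMI), and the values are numbers of UMIs per gene and barcode. Kept cells had at least 5000 UMIs, at least 1500 genes and at most 20% of their UMIs from the mitochondrial genome. A Malat1-rich cell also had less than 1% of its UMIs from 6 skeletal muscle genes (Acta1, Actc1, Mylpf, Myl1, Tnnc2 and Tnnt3), which set aside 25 cells with enough Malat1. Within each library they were compared with the 18779 kept cells in which Malat1 was below 1.5%, here called comparison cells. The 2536 kept cells between 1.5% and 3% were in neither set. The cells were chosen by their measured shares of Malat1, muscle and mitochondrial UMIs, so every difference from the comparison cells is given as a description without a test. Neat1 and Gm26917, which had been listed as markers of these cells together with Malat1, were higher in them in all 4 libraries.

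The libraries came from C3H10T1/2 (Clone 8), a line of mouse mesenchymal progenitor cells (MPC). All carried a lentiviral transgene for human histone H3.1 with HA and FLAG tags, driven by the EF1 promoter and held under puromycin, on top of the endogenous histone genes. The transgene was wild type (H3WT) or had arginine 26 replaced by cysteine (H3R26C), and the cells received 5-Azacitidine (5-Aza), an inhibitor of DNA methyltransferases, or its vehicle DMSO. Exposure to 5-Aza was at 3 µM for 24 h, with collection at day 28. For DMSO cells the sources used here give no collection day, so treatment and time in culture cannot be told apart. Each of the 4 conditions had 1 library, so library and condition cannot be told apart either. Intervals below are exact 95% intervals that cover counting error only. The kept cells held 86871326 UMIs in H3WT DMSO, 84345500 in H3WT 5-Aza, 84060490 in H3R26C DMSO and 110712425 in H3R26C 5-Aza.

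Malat1 is an abundant nuclear RNA of nuclear speckles, the bodies that store splicing factors, and unlike a messenger RNA it is not exported to be translated. Neat1 is the RNA scaffold of paraspeckles, and Xist, Kcnq1ot1 and Meg3 are further long noncoding RNAs that act in the nucleus. Messenger RNAs of ribosomal proteins and most enzymes are mainly cytoplasmic, and a high share of mitochondrial RNA is widely used to flag damaged cells in droplet data.

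Malat1 (ENSMUSG00000092341) is a gene of 1 exon on the minus strand of chromosome 19 at 5795690-5802672 in GRCm38. Neat1 (ENSMUSG00000092274) lies on the same strand at 5824708-5845478 and also has 1 exon, whereas Xist (ENSMUSG00000086503) covers 103460366-103483254 on the minus strand of chromosome X in 7 exons. Assays of this kind prime on the A tail of RNA and can also prime on runs of A inside it. The 30 bases around the longest run of A in each of these transcripts are shown for that reason, on the sense strand from GENCODE M21, with the run in capitals. The windows are chr19:5795979-5796008, chr19:5835922-5835951 and chrX:103482676-103482705.
Malat1: cctagctttAAAAAAAAAAAAgcaaaagac
Neat1: gcctggactatAAAAAAAccttcatgagga
Xist: ttttgtAAAAAAAAAAAAAAAAAcaaaaaa
The run had 12 A in Malat1, 7 in Neat1 and 17 in Xist. In Malat1 it began at base 6674 of 6983, near the end of the transcript, in Neat1 at base 9539 of 20771 and in Xist at base 556 of 17946. Where along the transcripts the reads lay is not in the count tables.

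Malat1-rich cells were a small part of every library and a larger part after 5-Aza. They were 64 of 3710 kept cells in H3WT DMSO (1.73%, 1.33% to 2.20%) and 82 of 4727 in H3R26C DMSO (1.73%, 1.38% to 2.15%). They were 211 of 5993 in H3WT 5-Aza (3.52%, 3.07% to 4.02%) and 352 of 7619 in H3R26C 5-Aza (4.62%, 4.16% to 5.12%). The share after 5-Aza was 2.04 times that with DMSO in H3WT (1.54 to 2.74) and 2.66 times in H3R26C (2.09 to 3.43). Between genotypes the ratio of H3R26C to H3WT was 1.01 with DMSO (0.716 to 1.42) and 1.31 after 5-Aza (1.10 to 1.56). Cells of the 5-Aza libraries were shallower. With at least 10000 UMIs and 2500 genes per cell the shares were 1.23%, 1.87%, 0.900% and 1.74% for H3WT DMSO, H3WT 5-Aza, H3R26C DMSO and H3R26C 5-Aza, so that H3R26C was then slightly below H3WT after 5-Aza. With every kept cell thinned to 5000 UMIs they were 1.67%, 3.59%, 1.84% and 4.65%, close to the shares at full depth. No barcode of a Malat1-rich cell occurred as a Malat1-rich cell in another library. Pairs of libraries shared 54 to 228 barcodes, but only 24 to 58 of kept cells. With so few shared kept cells and such small shares, the absence of overlap says little.

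Malat1-rich cells held fewer molecules than comparison cells and more of them came from mitochondria. Their median was 12875 UMIs against 23025 in H3WT DMSO, 9133 against 13502 in H3WT 5-Aza, 9883 against 17006 in H3R26C DMSO and 7354 against 13638 in H3R26C 5-Aza. Their median mitochondrial share was 11%, 6.24%, 7.74% and 7.14% in the same order, against 3.73%, 2.77%, 2.65% and 2.43% in comparison cells. The part of depth and of RNA quality in the differences below was not tested beyond the settings given with them. The median Malat1 share was 4.76%, 6.60%, 3.91% and 6.58%, and its highest value was 29.9%, 38.6%, 16.5% and 46.9%. Summed over the Malat1-rich cells of a library, Malat1 was at 60309 CPM (counts per 1000000 UMIs) in H3WT DMSO, 97810 in H3WT 5-Aza, 46607 in H3R26C DMSO and 84722 in H3R26C 5-Aza, and at 6064 to 7707 CPM in comparison cells.

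**Figure D1:**
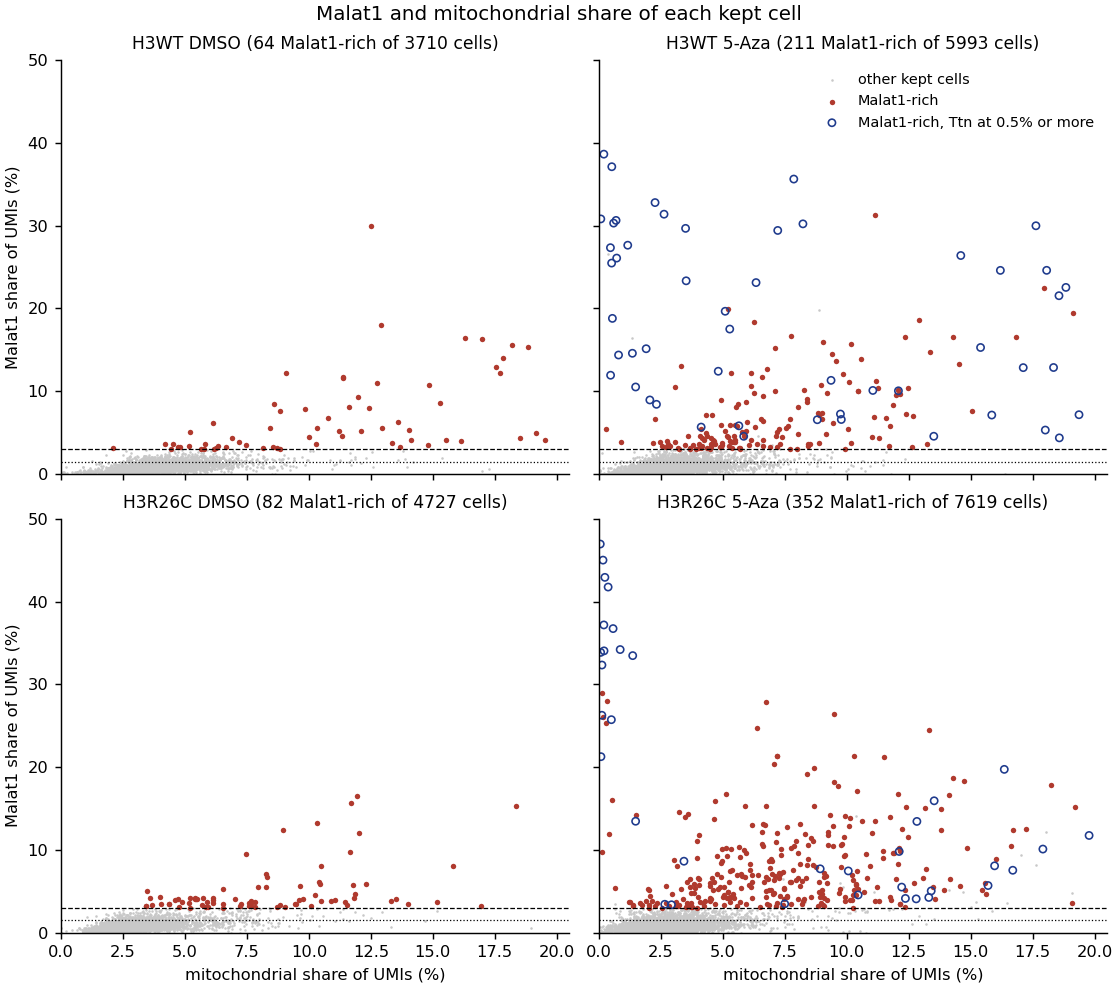
Share of UMIs from Malat1 (vertical axis, percent) against share from the mitochondrial genome (horizontal axis, percent) for each kept cell of the 4 libraries, with other kept cells in grey, Malat1-rich cells in red, those with at least 0.5% Ttn as blue rings, and lines at 3% (dashed) and 1.5% (dotted) Malat1. With DMSO all cells of 10% Malat1 or more lay above 5% mitochondrial UMIs, whereas the 5-Aza libraries also had cells of high Malat1 below 2%.

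The mitochondrial share divided the Malat1-rich cells differently by treatment. With DMSO 0 cells of either genotype lay under 2% mitochondrial UMIs, against 17 in H3WT 5-Aza and 32 in H3R26C 5-Aza, whose median Malat1 share was 25.5% in both libraries. Of these cells 15 and 15 also had at least 0.5% of their UMIs from Ttn, as described further on. The remaining 17 cells of H3R26C 5-Aza had a median Malat1 share of 5.36%. At the other end, between 10% and 20% mitochondrial UMIs, the 4 libraries held 36, 50, 26 and 88 Malat1-rich cells, with median Malat1 shares of 6.55%, 10.1%, 4.63% and 7.64%. Without the cells with Ttn the medians there were 10.0% in H3WT 5-Aza (34 cells) and 7.92% in H3R26C 5-Aza (72 cells). The class under 2% of H3WT 5-Aza then had 2 cells, too few for a median.

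Nuclear noncoding RNAs were among the genes most above their level in comparison cells in all 4 libraries. Neat1 was at 3206, 2723, 1920 and 3767 CPM in Malat1-rich cells of H3WT DMSO, H3WT 5-Aza, H3R26C DMSO and H3R26C 5-Aza, and at 375, 204, 267 and 156 CPM in comparison cells. All 4 sums of the Malat1-rich cells lay above all 4 sums of the comparison cells. Single cells overlapped, as in H3WT DMSO, where the lowest Neat1 share of a Malat1-rich cell was 0% and the highest of a comparison cell 0.744%. The log2 ratio of Malat1-rich over comparison cells, taken after adding 1 CPM to both, was 3.09 (3.04 to 3.15), 3.73 (3.69 to 3.78), 2.84 (2.78 to 2.92) and 4.58 (4.56 to 4.63). The intervals in brackets are those of the ratio without the added 1 CPM. Xist, which coats the inactive X chromosome, was at 1540, 2352, 791 and 1915 CPM against 230, 222, 207 and 183 CPM, with log2 ratios of 2.74, 3.40, 1.93 and 3.38. Kcnq1ot1, an imprinted RNA that silences neighbouring genes in cis, was at 524, 698, 355 and 376 CPM against 98.7, 80.2, 75.7 and 39.0 CPM, with log2 ratios of 2.40, 3.11, 2.22 and 3.24. Kcnq1ot1 lies antisense within Kcnq1, and whether the counting used strand is not given in the sources used here. The order of the libraries depended on the cells used. Without the cells with Ttn described further on Neat1 had 3.05 in H3WT 5-Aza. With cells of 5000 to 10000 UMIs, which left 20 Malat1-rich cells in H3WT DMSO, H3WT DMSO and H3WT 5-Aza had 4.08 and 3.36 for Neat1, 3.58 and 3.32 for Xist, and 3.66 and 3.08 for Kcnq1ot1. With at most 10% mitochondrial UMIs H3WT DMSO had 2.37 for Neat1, 2.21 for Xist and 1.79 for Kcnq1ot1.

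Gm26917 belongs to a group of transcripts annotated inside a ribosomal DNA repeat on chromosome 17, together with Gm42418 and AY036118. Gm26917 (17, 39843013-39846341) was at 1301, 5021, 803 and 2316 CPM in Malat1-rich cells and at 166, 100, 121 and 127 CPM in comparison cells, with log2 ratios of 2.96, 5.63, 2.72 and 4.18. Without the cells with Ttn its value in H3WT 5-Aza was 3.94, and with cells of 5000 to 10000 UMIs its value in H3WT DMSO was 1.49. Gm42418 was at 43486, 34015, 29569 and 41779 CPM against 11738, 13014, 10655 and 12439 CPM. AY036118 lies within Gm42418 on the other strand and had log2 ratios of 1.09, 0.67, 0.97 and 0.75. Ribosomal DNA is repeated in the genome, so the split of reads among these genes is uncertain. In H3WT 5-Aza the share of Gm26917 was uneven, with a median of 0.117% and a highest value of 15.2% over the Malat1-rich cells.

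Of 19 nuclear long noncoding RNAs listed, Malat1 included, 8 others passed the minimum mean of 50 CPM over the 8 sums (Malat1-rich and comparison cells of each library). They are called tested below, although no test was made. Their median log2 ratio was 1.59 in H3WT DMSO, 2.70 in H3WT 5-Aza, 1.28 in H3R26C DMSO and 2.17 in H3R26C 5-Aza, where all 3496 genes tested had medians of -0.13, -0.23, 0.03 and -0.17. The list's median in H3WT 5-Aza was 1.85 without the cells with Ttn, and with cells of 5000 to 10000 UMIs it was 3.23 in H3WT DMSO and 2.38 in H3WT 5-Aza. With at most 10% mitochondrial UMIs it was 0.93 in H3WT DMSO, below 2-fold. Neat1, Xist, Kcnq1ot1 and Mir99ahg were at least 2-fold higher in all 4 libraries, as were 4.66% of all genes tested. Meg3 and Rian, imprinted RNAs from one locus on chromosome 12, had log2 ratios of 2.30 and 3.61 in H3WT 5-Aza and of 0.63 and 1.47 in H3WT DMSO. In H3R26C they had 0.63 and 0.53 with DMSO and 0.64 and 0.87 after 5-Aza, all below 2-fold. With at most 10% mitochondrial UMIs the values of H3WT DMSO were -0.54 and 0.64. The 5 listed snoRNA host genes tested, spliced RNAs whose introns carry small nucleolar RNAs, had medians below 0, of -0.62, -0.38, -1.36 and -0.82. Gas5, the most abundant of them, had log2 ratios of -0.29, -0.38, -1.18 and -1.0. Of host genes outside these 5, Zfas1 had -0.35, -0.11, -1.77 and -0.91, whereas Snhg20 was above 0, at 0.24, 0.56, 0.17 and 0.65. Of the 37 noncoding or unclassified genes tested 7 were at least 2-fold higher and 3 at least 2-fold lower in all 4 libraries, as were 4.66% and 4.69% of all genes.

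The number of genes past 2-fold differed between libraries and was largest in H3R26C 5-Aza. At least 2-fold higher were 233 genes in H3WT DMSO (6.66% of those tested), 383 in H3WT 5-Aza (11%), 524 in H3R26C DMSO (15%) and 757 in H3R26C 5-Aza (21.7%). At least 2-fold lower were 274 (7.84%), 449 (12.8%), 659 (18.9%) and 827 (23.7%). In all 4 libraries 163 genes were at least 2-fold higher (4.66%) and 164 at least 2-fold lower (4.69%). Malat1 and mitochondrial RNA took a larger part of the UMIs in Malat1-rich cells, which lowers the CPM of every other gene. With CPM computed without Malat1, the mitochondrial genes and the 6 muscle genes, the medians of all genes moved to 0.10, 0.03, 0.21 and 0.09. Of the 3496 genes tested 276 were then higher and 29 lower in all 4 libraries. In single libraries 378, 553, 673 and 919 were higher and 108, 96, 507 and 521 lower under that scaling. Without the cells with Ttn described further on, 406 of 3506 genes were higher and 212 lower in H3WT 5-Aza. With cells limited to at most 10% mitochondrial UMIs the counts over all 4 libraries were 66 and 24. Without H3WT DMSO, the library with the fewest Malat1-rich cells, they were 253 and 351 over the other 3 libraries.

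**Figure D2:**
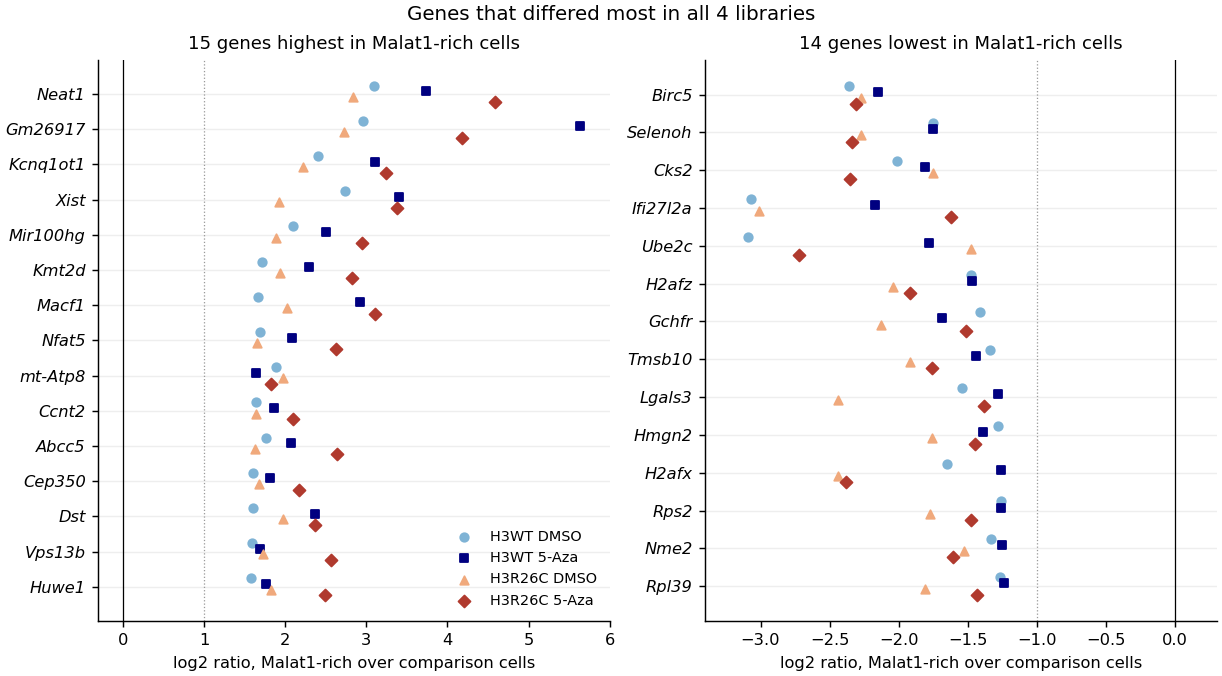
Log2 ratio of Malat1-rich over comparison cells (horizontal axes) for the 15 genes with the largest lowest value (left) and 14 of the 15 with the smallest highest value (right) over the 4 libraries. Each symbol is 1 library, and the dotted lines mark a 2-fold difference. Gm26917 of H3WT 5-Aza reached 5.63 (3.94 without the cells with Ttn), and H3R26C 5-Aza lay above the other 3 libraries for 11 of the 15 genes at the left.

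The 15 genes highest in all 4 libraries were 5 noncoding RNAs, 1 mitochondrial gene and 9 genes with long messenger RNAs. Besides Neat1, Gm26917, Kcnq1ot1 and Xist the noncoding RNAs included Mir100hg, a microRNA host gene, with log2 ratios of 2.10, 2.5, 1.89 and 2.95 in H3WT DMSO, H3WT 5-Aza, H3R26C DMSO and H3R26C 5-Aza. Macf1, a giant protein that links actin to microtubules, was at 522, 1448, 653 and 1255 CPM against 165, 190, 160 and 145 CPM, with log2 ratios of 1.66, 2.92, 2.02 and 3.11. Kmt2d, a histone methyltransferase, had log2 ratios of 1.72, 2.29, 1.94 and 2.83. Nfat5, a transcription factor of the osmotic stress response, had 1.69, 2.08, 1.65 and 2.63. The other 6 were Ccnt2, a cyclin of transcription elongation, Abcc5, a membrane transporter, Cep350, a centrosomal protein, Dst, a relative of Macf1, Vps13b, a lipid transfer protein, and Huwe1, a ubiquitin ligase. Their log2 ratios ran from 1.58 for Huwe1 in H3WT DMSO to 2.64 for Abcc5 in H3R26C 5-Aza. The mitochondrial gene, mt-Atp8 of the ATP synthase, had 1.89, 1.64, 1.98 and 1.82. The spliced lengths of the 9 messenger RNAs ran from 5811 bases (Abcc5) to 23495 bases (Macf1). Kmt2d, Ccnt2, Vps13b, Cep350 and Mir100hg were at 40.0 CPM or less in the comparison cells of every library. Abcc5 was at 54.0 CPM in those of H3WT DMSO and at 43.3 CPM or less in the others. These genes passed the minimum mean of 50 CPM only through the Malat1-rich cells, so their high ratios were favoured by the choice of genes.

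The 14 genes given here as lowest in all 4 libraries included genes of mitosis, chromatin, the ribosome and the cytosol. Birc5, the mitotic protein survivin, was at 8.56, 16.1, 19.7 and 32.6 CPM in Malat1-rich cells against 48.0, 75.1, 98.9 and 166 CPM in comparison cells, with log2 ratios of -2.36, -2.15, -2.27 and -2.31. These rest on 8, 37, 17 and 105 UMIs in the Malat1-rich cells. Cks2, which binds cyclin-dependent kinases, had -2.01, -1.81, -1.75 and -2.35, and Ube2c, a ubiquitin-conjugating enzyme of mitosis, was at 3.21, 22.2, 30.2 and 25.7 CPM against 34.8, 78.5, 86.0 and 175 CPM, where the first value is 3 UMIs. The histone variant genes H2afz and H2afx had log2 ratios of -1.26 to -2.44, and Hmgn2, which binds nucleosomes, had -1.28 to -1.76. Selenoh, which encodes a selenoprotein, had -1.75 to -2.34. Ifi27l2a, an interferon-stimulated gene, was at 2.14, 14.4, 9.29 and 221 CPM against 25.3, 68.2, 81.6 and 685 CPM, where the first value is 2 UMIs. The ribosomal protein genes Rps2 and Rpl39 had log2 ratios of -1.24 to -1.81. The list was completed by Tmsb10, an actin-binding thymosin, Lgals3, a galectin, Nme2, a nucleoside diphosphate kinase, and Gchfr, a regulator of tetrahydrobiopterin synthesis. Their spliced lengths ran from 463 bases (Ifi27l2a) to 3334 bases (Birc5).

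All 13 messenger RNAs of the mitochondrial genome were higher in Malat1-rich cells of every library, and 12 of them at least 2-fold in all 4 (4.66% of all genes). The exception was mt-Nd4, a subunit of respiratory complex I, at 0.94 in H3WT 5-Aza. Their median log2 ratio was 1.43, 1.29, 1.53 and 1.51 in H3WT DMSO, H3WT 5-Aza, H3R26C DMSO and H3R26C 5-Aza. mt-Co1, a subunit of cytochrome c oxidase, was at 15739, 10634, 13572 and 13249 CPM against 6654, 4948, 5116 and 4741 CPM. Subunits of the same respiratory chain that are encoded in the nucleus were lower instead. The 46 tested had medians of -0.72, -0.99, -1.03 and -1.33, and 1, 22, 25 and 44 of them were at least 2-fold lower, beside 7.84%, 12.8%, 18.9% and 23.7% of all genes. In H3WT DMSO that is a smaller share than over all genes. At least 2-fold higher were 0 of them. With cells of 5000 to 10000 UMIs their medians were -0.83, -1.17, -1.40 and -1.97. With CPM computed without Malat1, the mitochondrial genes and the 6 muscle genes, 0, 1, 16 and 40 were at least 2-fold lower, beside 3.09%, 2.75%, 14.5% and 14.9% of all genes. Cox8a, a nuclear subunit of cytochrome c oxidase, was at 1101, 866, 1030 and 696 CPM against 1691, 1727, 2007 and 1787 CPM. The 2 genomes that encode this machinery thus differed in opposite directions in each library. The nuclear side was not particular to the respiratory chain. All protein-coding genes with a spliced length under 1 kb had medians of -0.88, -1.02, -1.29 and -1.30, as given with the lengths. The part of length in the values of the nuclear subunits was not tested. With cells at most 10% mitochondrial the medians of the mitochondrial genes were 0.82, 0.85, 1.22 and 1.09.

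Messenger RNAs of the translation machinery were lower. The 77 ribosomal protein genes had medians of -1.02, -1.09, -1.68 and -1.36, with 43, 62, 76 and 75 at least 2-fold lower (7.84%, 12.8%, 18.9% and 23.7% over all genes), 41 of them in all 4 libraries (4.69%), and 0 at least 2-fold higher. With CPM computed without Malat1, the mitochondrial genes and the 6 muscle genes these counts were 13, 8, 74 and 68 (3.09%, 2.75%, 14.5% and 14.9% over all genes), with 6 in all 4 libraries (0.83%), and the medians were -0.84, -0.89, -1.54 and -1.17. With cells of 5000 to 10000 UMIs the medians were -1.40, -1.33, -1.97 and -2.18, lowest in H3R26C 5-Aza. Summed, they were at 81093, 69043, 51370 and 64812 CPM in Malat1-rich cells and at 167124, 149080, 169511 and 166696 CPM in comparison cells. H3R26C DMSO thus held the lowest ribosomal protein RNA in Malat1-rich cells and the highest in comparison cells. Many ribosomal protein genes have near-identical pseudogenes, so single values are uncertain where reads were split. The 18 translation factors had medians of -0.89, -0.98, -1.24 and -1.17, led by Eef1a1, the elongation factor that brings transfer RNA to the ribosome, at 3236, 2444, 2394 and 2515 CPM against 6245, 5158, 4980 and 5111 CPM. The 24 genes for actin cytoskeleton and small cytosolic proteins had -1.0, -1.12, -1.46 and -1.25, with 12 at least 2-fold lower in all 4 (4 under the same scaling), and the 12 glycolytic genes had -0.56, -0.77, -0.78 and -0.84. Ldha, lactate dehydrogenase, was the 1 glycolytic gene at least 2-fold lower in all 4 libraries, at -1.12, -1.20, -1.19 and -1.16, and 0 were under that scaling.

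Lists of chromatin, splicing and speckle genes had medians above 0 in all 4 libraries. The 26 chromatin regulators with long messenger RNAs had medians of 0.84, 0.98, 0.96 and 1.41, with 7, 12, 12 and 20 at least 2-fold higher (6.66%, 11%, 15% and 21.7% over all genes), 6 of them in all 4 libraries (4.66%), and 0 at least 2-fold lower. This list was written for long messenger RNAs, a class that was higher as a whole, as given with the lengths. Atrx, a chromatin remodeller, was at 314, 339, 360 and 404 CPM against 186, 174, 177 and 150 CPM. The 25 splicing regulators known for retained introns had 0.72, 1.04, 0.54 and 1.19. Among them Ddx17, an RNA helicase, had 1.48, 2.01, 1.22 and 2.51, whereas Srsf2, a splicing factor of the SR family, had 0.18, 0.13, -0.28 and -0.02. The 14 speckle and paraspeckle proteins had 0.67, 0.76, 0.51 and 0.87, led in abundance by Srrm2, a core speckle protein, at 707, 905, 668 and 1097 CPM against 443, 420, 403 and 413 CPM. Of the 5 subunits and partners of PRC2 tested, Ezh1, a methyltransferase subunit, had 1.05, 0.94, 1.12 and 1.59, Suz12, a core subunit, had 0.26, 0.62, 0.37 and 0.78, and Rbbp7, a histone-binding subunit, had -0.29, -0.34, -0.57 and -0.48.

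**Figure D3:**
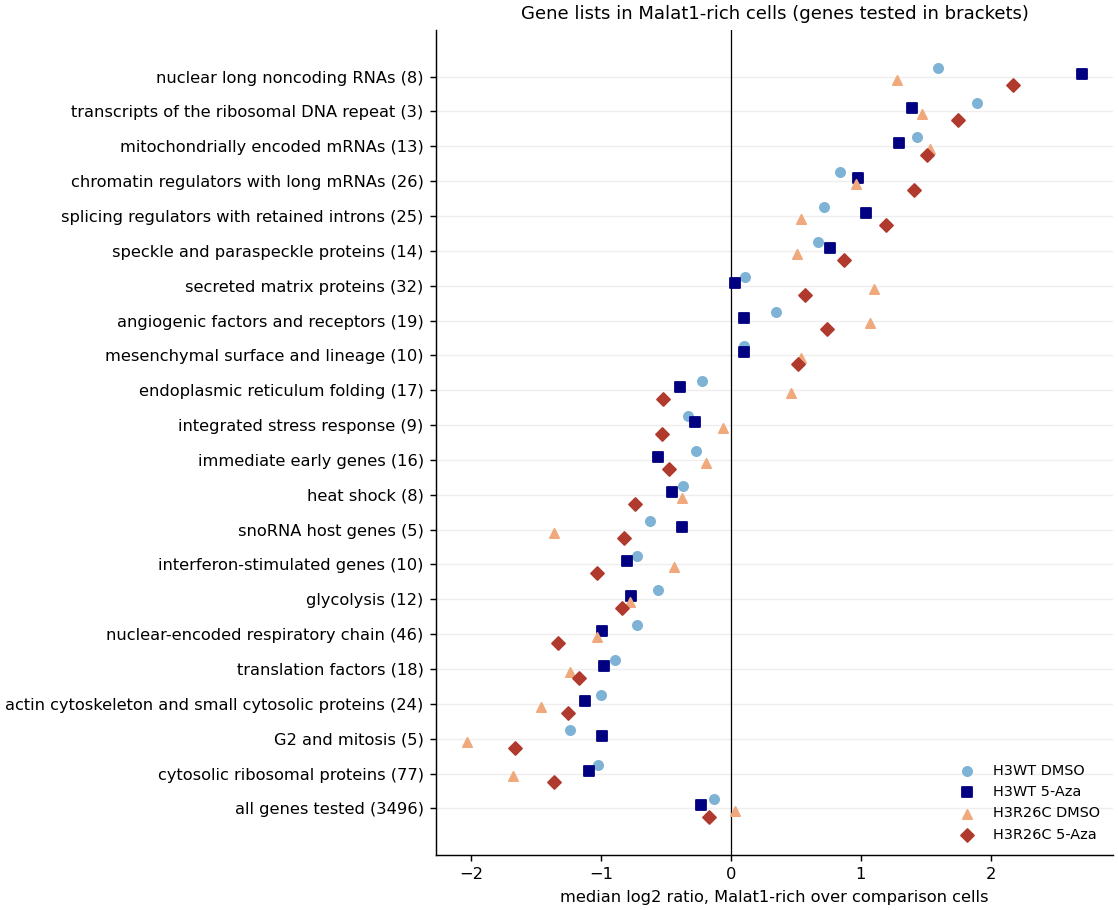
Median log2 ratio of Malat1-rich over comparison cells (horizontal axis) for 21 gene lists and for all genes tested, with 1 symbol per library and the number of genes tested in brackets. Nuclear long noncoding RNAs and mitochondrial messenger RNAs lay right of 1 in all 4 libraries, and ribosomal protein genes lay left of -1. Matrix and angiogenic lists of H3R26C DMSO lay apart from those of the H3WT libraries.

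The log2 ratio ran with the length of the messenger RNA. Over 3446 protein-coding genes tested, Spearman's rho between spliced length (the summed exons of the gene in GENCODE M21) and log2 ratio was 0.79 in H3WT DMSO, 0.81 in H3WT 5-Aza, 0.77 in H3R26C DMSO and 0.84 in H3R26C 5-Aza. The points are genes that share the same cells and libraries, so no p is given. The 336 genes under 1 kb had medians of -0.88, -1.02, -1.29 and -1.30, and the 150 genes of 10 kb or more had 0.96, 1.15, 1.23 and 1.80. The order of the 6 length classes was the same in every library. Genes at least 2-fold higher in all 4 libraries had a median spliced length of 8917 bases (144 protein-coding genes) and genes at least 2-fold lower had 1094 (161 genes), against 3058 for all tested. The ribosomal protein medians lay below those of genes under 1 kb in each library, whereas the mitochondrial messenger RNAs, short as they are, lay above the genes of 10 kb or more in 3 libraries and below them in H3R26C 5-Aza.

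**Figure D4:**
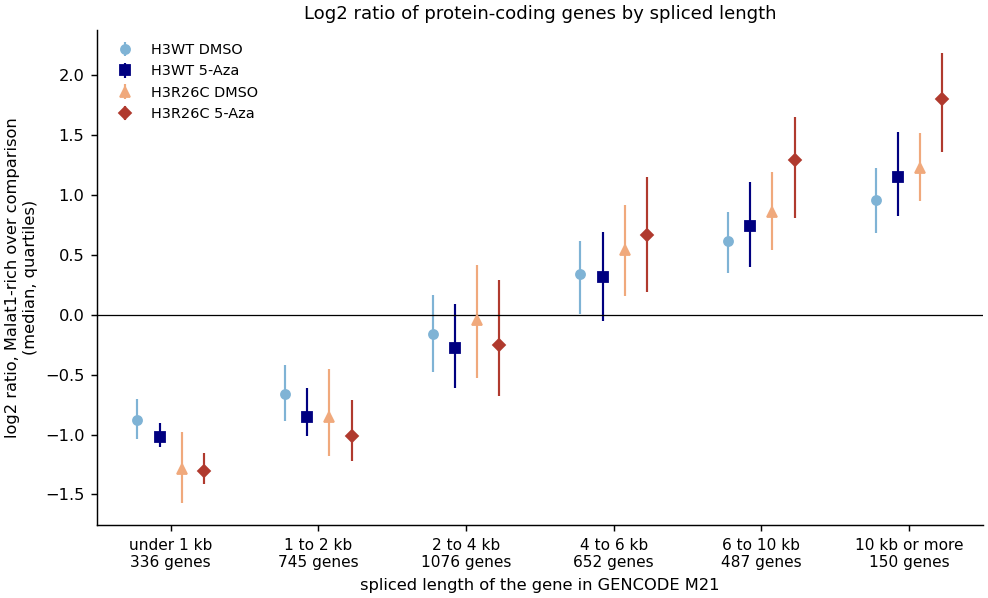
Log2 ratio of Malat1-rich over comparison cells (vertical axis) of protein-coding genes in 6 classes of spliced length (horizontal axis, with the number of genes). Symbols are medians of a library and bars run from the lower to the upper quartile. The medians ran from -0.88 or less under 1 kb to 0.96 or more at 10 kb or more in every library.

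Longer transcripts more often hold a run of A. A stretch of AAAAAAAAAA (10 A, on the sense strand of the transcript) was present in 3.57% of genes under 1 kb and in 47.3% of those of 10 kb or more. In both classes of 6 kb or more the genes with such a run had the lower medians. At 6 to 10 kb, genes with the run had medians of 0.53, 0.59, 0.74 and 1.03 and genes without it had 0.68, 0.84, 0.93 and 1.45. At 10 kb or more the medians were 0.91, 1.04, 1.12 and 1.69 with the run and 1.02, 1.29, 1.37 and 2.00 without. The part of such runs in the values of Malat1 and Xist was not tested.

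Secreted matrix genes had larger ratios in the H3R26C than in the H3WT libraries. The 32 tested had medians of 0.11 in H3WT DMSO, 0.03 in H3WT 5-Aza, 1.10 in H3R26C DMSO and 0.57 in H3R26C 5-Aza, and 4, 2, 17 and 12 of them were at least 2-fold higher, beside 6.66%, 11%, 15% and 21.7% of all genes. Fn1, fibronectin, was at 6519, 6264, 6822 and 6210 CPM in Malat1-rich cells against 3534, 4006, 2321 and 2195 CPM in comparison cells. Col1a1, a chain of type I collagen, was at 3942, 3124, 7080 and 5879 CPM against 3066, 2672, 3092 and 2951 CPM. In Malat1-rich cells both H3R26C libraries thus lay above both H3WT libraries in Col1a1, and in Fn1 the Malat1-rich cells of all libraries were close to each other. With DMSO this order in Col1a1 held only from 3% to 5% Malat1, at 7738 CPM in H3R26C against 3440 in H3WT. At 5% to 10% Malat1 it was at 4777 against 4942 CPM (14 and 17 cells). At 10% or more it was at 3073 against 3444 CPM (6 and 14 cells). Fstl1, a secreted glycoprotein, was at 6368 CPM against 2419 in H3R26C DMSO, a log2 ratio of 1.40, and its ratios in the other 3 libraries were 0.11, -0.05 and 0.00. The 19 angiogenic genes tested had medians of 0.35, 0.10, 1.07 and 0.74, with Adamts1, a secreted protease and the most abundant of them, at 0.76, 0.33, 1.42 and 1.02. Endoplasmic reticulum folding genes had a median above 0 in H3R26C DMSO, at 0.46, and at -0.22, -0.39 and -0.52 in H3WT DMSO, H3WT 5-Aza and H3R26C 5-Aza. Without the cells with Ttn described further on, the matrix medians of H3WT 5-Aza and H3R26C 5-Aza were 0.41 and 0.72. At least 2-fold higher were then 9 and 13 matrix genes, beside 406 and 757 of all 3506 genes tested. With 1 library for each genotype and treatment, these differences between genotypes were not tested.

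The single genes whose log2 ratio differed most between genotypes with DMSO included genes at 0. Among the 5 named for a higher ratio in H3R26C DMSO, Alcam and Tnnc1 had 0 UMIs in the Malat1-rich cells of H3WT DMSO. A count of 0 there allows up to 3.21 CPM, above the 2.20 and 2.03 CPM of their comparison cells, so no fold is given. The others were Thy1 and Ly6c1, surface antigens of mesenchymal cells, and Lox, which crosslinks collagen. Lox was at 650, 575, 2206 and 463 CPM in Malat1-rich cells of H3WT DMSO, H3WT 5-Aza, H3R26C DMSO and H3R26C 5-Aza, and at 754, 680, 634 and 423 CPM in comparison cells. Thy1 had log2 ratios of -1.78 and 0.57 with DMSO, and Ly6c1 -1.53 and 0.52. Named for a lower ratio in H3R26C DMSO were Ccl2, a chemokine, at 9.29 CPM against 188 (log2 ratio -4.20, against -0.20 in H3WT DMSO), Mki67, Top2a and Hist1h1b of proliferating cells, and Col8a1, a collagen chain. Mki67 had 0.98 in H3WT DMSO and -1.99 in H3R26C DMSO, on 58 and 13 UMIs, and Top2a had 0.84 and -2.03, on 101 and 24. With at most 10% mitochondrial UMIs the value of Top2a in H3WT DMSO became -2.05, so its direction turned, and Mki67 had 0 UMIs in the 28 Malat1-rich cells left there. Col8a1 had 0 UMIs in the Malat1-rich cells of both DMSO libraries and was at 1.13 and 6.53 CPM in the comparison cells of H3WT and H3R26C. The 3.21 CPM that 0 UMIs allow in H3WT DMSO is above its 1.13 CPM there. No fold and no direction of its genotype difference is therefore given.

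After 5-Aza the genes with a higher ratio in H3R26C were Akap12, Pi15, Plagl1, Col12a1 and Tnxb. Col12a1, a collagen chain, had the largest values, at 277 against 109 CPM in H3WT (1.34) and 372 against 47.3 CPM in H3R26C (2.95). Akap12, a scaffold for protein kinase A, had 0.21 and 2.07, and Tnxb, a tenascin, had 0.64 and 2.18. Pi15, a secreted peptidase inhibitor, had -0.09 and 1.60, and Plagl1, an imprinted zinc finger factor, had 0.09 and 1.71. Without the cells with Ttn, Col12a1 had 1.77 and 3.13, Akap12 0.61 and 2.25, Tnxb 1.01 and 2.34, Pi15 0.36 and 1.78, and Plagl1 0.49 and 1.89. The genes with a lower ratio in H3R26C were Rian, Neb, Runx1, Ankrd1 and Meg3. Rian was at 305 against 24.2 CPM in H3WT (3.61) and 23.0 against 12.1 CPM in H3R26C (0.87). Neb, which spans the thin filament of muscle, was at 1952 against 27.6 CPM in H3WT and 658 against 36.3 CPM in H3R26C. Runx1, a transcription factor, had 3.94 and 2.15, and Ankrd1, a titin-binding protein of muscle, had 2.77 and 1.09. Runx1, Neb and Ankrd1 reached the minimum mean of 50 CPM only through the Malat1-rich cells of the 5-Aza libraries. In all other sums they were at 29.6, 36.3 and 79.9 CPM or less. Rian reached it only through the Malat1-rich cells of H3WT, at 305 CPM and, with DMSO, 105 CPM. High ratios of these genes there were therefore favoured by the choice of genes. Plagl1 and Tnxb, named above for a higher ratio, were at 47.0 and 42.9 CPM or less in comparison cells of every library. Pi15 was at 46.4 CPM or less in those of all libraries but H3R26C DMSO (109 CPM). Plagl1, Tnxb and Pi15 also passed only through Malat1-rich cells, which favoured high ratios. Without the cells with Ttn described next, Neb had 0.83 and 0.35, Runx1 1.54 and 1.02, Rian 1.84 and 1.03, Meg3 1.2 and 0.82, and Ankrd1 -0.93 and -1.02.

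A subset of the Malat1-rich cells of the 5-Aza libraries held RNA of titin, the giant protein of the sarcomere, although the rule had removed cells with 1% or more of the 6 muscle genes. This subset was chosen after the values were seen, at a share of at least 0.5% of UMIs from Ttn. It held 51 of 211 Malat1-rich cells in H3WT 5-Aza (24.2%, 18.6% to 30.5%) and 36 of 352 in H3R26C 5-Aza (10.2%, 7.27% to 13.9%). In the DMSO libraries 0 of 64 and 0 of 82 Malat1-rich cells had a Ttn UMI, which allows shares of up to 5.6% and 4.4%. In comparison cells of the 5-Aza libraries the shares were 0.437% (22 of 5038) and 0.574% (37 of 6445). In H3WT 5-Aza and H3R26C 5-Aza 5 and 8 Malat1-rich cells lay between 0.1% and 0.5%. The subset held 98.5% and 97.7% of all Ttn UMIs of the Malat1-rich cells. Another 117 and 194 Malat1-rich cells were above 0 but below 0.1%, as were 3685 and 4080 comparison cells.

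**Figure D5:**
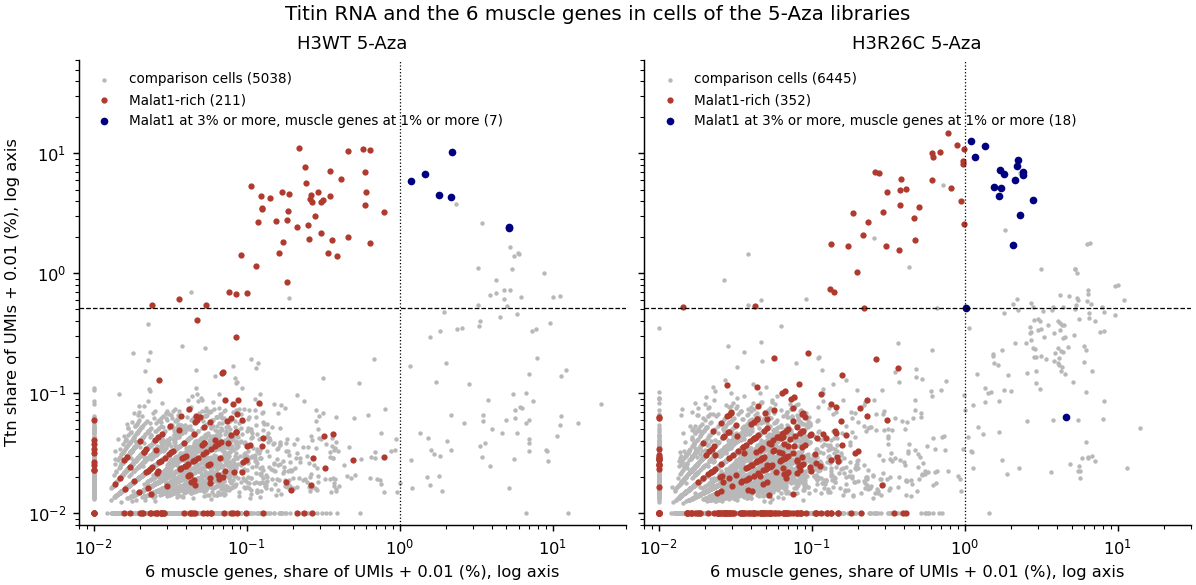
Share of UMIs from Ttn (vertical axis) against the summed share of the 6 muscle genes of the rule (horizontal axis) for cells of the 5-Aza libraries, both in percent plus 0.01 on log axes, with comparison cells in grey, Malat1-rich cells in red, cells set aside by their muscle genes in blue, and lines at 0.5% Ttn (dashed) and 1% muscle genes (dotted). Malat1-rich cells with Ttn continued into the cells set aside, and most comparison cells with muscle genes lay lower in Ttn.

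The Ttn-high cells held RNA of many further muscle genes. In H3WT 5-Aza they held 35323 CPM of Ttn, 6357 of Neb, 953 of Ryr1, the calcium release channel, and 166 of Dmd, dystrophin. In H3R26C 5-Aza these were 51481, 4978, 1010 and 159 CPM. The other Malat1-rich cells held 240 and 174 CPM of Ttn and 30.7 and 30.5 CPM of Neb. Cells with the 6 muscle genes at 1% or more and Malat1 below 1.5%, 90 in H3WT 5-Aza and 136 in H3R26C 5-Aza, held 4059 and 3787 CPM of Ttn but 21239 and 16650 CPM of Acta1, skeletal actin, against 852 and 1935 CPM in the Ttn-high cells. Mylpf, a myosin light chain, was at 13773 and 15793 CPM in those cells and at 532 and 1079 CPM in the Ttn-high cells. The choice of cells fixed the direction for Ttn, Acta1 and Mylpf. Of the genes it did not use, Neb was at 701 and 608 CPM, Ryr1 at 170 and 175 and Dmd at 9.54 and 4.30 in those muscle cells, all below the Ttn-high cells. Chrng, a subunit of the acetylcholine receptor of muscle, was at 265 and 504 CPM in the Ttn-high cells and at 440 and 817 CPM in the muscle cells. Myog, the myogenic regulator, was at 324 and 423 CPM in them, 1713 and 1609 CPM in the muscle cells and 8.13 and 12.8 CPM in the other Malat1-rich cells.

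Ttn-high cells were also richer in Malat1 than the others. Their median Malat1 share was 17.5% in H3WT 5-Aza and 12.6% in H3R26C 5-Aza, against 5.15% and 6.42% in the other Malat1-rich cells, and they were deeper, with medians of 11980 and 10672 UMIs against 8714 and 7218. Neat1 was at 5084 and 7485 CPM in them and at 1693 and 3227 CPM in the others. Fibroblast matrix RNA was lower, with the 34 secreted matrix genes summing to 13841 and 12893 CPM in the Ttn-high cells and 49932 and 48854 CPM in the others. Fbn1, fibrillin, was at 141 and 95.4 CPM against 935 and 1443 CPM. Meg3 and Rian parted the genotypes within the subset, at 1023 and 802 CPM in H3WT 5-Aza and at 2.45 CPM each, a single UMI, in H3R26C 5-Aza. Of the genes tested between Ttn-high and other Malat1-rich cells 7.12% were at least 2-fold higher in H3WT 5-Aza and 9.67% in H3R26C 5-Aza, and 14.9% and 16.2% at least 2-fold lower.

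Without the Ttn-high cells the ribosomal and mitochondrial lists kept their direction. Over the 4 libraries 181 genes were at least 2-fold higher and 113 at least 2-fold lower. Ribosomal protein genes then had medians of -1.0 in H3WT 5-Aza and -1.32 in H3R26C 5-Aza, and mitochondrial messenger RNAs 1.25 and 1.48. Fewer genes of H3WT 5-Aza were then at least 2-fold lower. They were 37 of the 77 ribosomal protein genes and 5 of the 46 nuclear-encoded respiratory chain genes, beside 212 of all 3506 genes tested. With the Ttn-high cells these were 62, 22 and 449 (of 3496). The 17 skeletal muscle markers, which summed to 14025 and 8298 CPM over all Malat1-rich cells of the 5-Aza libraries and to 652 and 904 CPM in comparison cells, summed to 476 and 435 CPM in the others, against 481 and 696 CPM in comparison cells below 0.5% Ttn. With DMSO they summed to 39.6 and 39.5 CPM in Malat1-rich cells.

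Among the Malat1-rich cells themselves Neat1 was higher and Rplp0 lower in each higher class of Malat1 share, whereas Macf1 and Col1a1 had no one order across the libraries. From 3% to 5%, 5% to 10% and 10% or more Malat1 and without Ttn-high cells, Neat1 was at 1327, 4286 and 7956 CPM in H3WT DMSO and at 932, 1731 and 3854 CPM in H3WT 5-Aza. It was at 1424, 2844 and 6924 CPM in H3R26C DMSO and at 1650, 2771 and 6336 CPM in H3R26C 5-Aza. Xist was at 618, 1007, 559 and 1014 CPM in the lowest of these classes and at 4297, 4719, 3031 and 3410 CPM in the highest. Rplp0, a ribosomal stalk protein, was at 1976, 1662, 994 and 2090 CPM in the lowest and at 622, 474, 484 and 591 CPM in the highest. Macf1 was at 258, 874 and 694 CPM in the 3 classes of H3WT DMSO, 445, 762 and 694 CPM in H3WT 5-Aza, and 643, 713 and 652 CPM in H3R26C DMSO, lower in the top class than in the middle one. In H3R26C 5-Aza it was at 470, 843 and 1003 CPM. The top class held 14, 36, 6 and 88 cells, so the value of H3R26C DMSO rests on few cells. Col1a1 followed no such order in H3WT DMSO, at 3440, 4942 and 3444 CPM, nor in H3WT 5-Aza at 4061, 3999 and 4558 CPM or in H3R26C 5-Aza at 5594, 7895 and 6184 CPM. In H3R26C DMSO it was lower at each step, at 7738, 4777 and 3073 CPM. Over single Malat1-rich cells, without the Ttn-high ones, Spearman's rho between the shares of Malat1 and Neat1 was 0.81 (64 cells), 0.65 (160 cells), 0.51 (82 cells) and 0.62 (316 cells). For the mitochondrial share it was 0.62, 0.51, 0.35 and 0.27. These are descriptions of cells that share a library and whose shares sum to a fixed total.

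No gap in the Malat1 share lay at its limit of 3%. From 3% to 3.5% Malat1 there were 17, 35, 25 and 39 cells, with median mitochondrial shares of 6.25%, 4.89%, 6.52% and 3.94%. From 2.5% to 3% there were 28, 79, 54 and 97 cells, with 6.14%, 4.22%, 6.24% and 3.84%. Their median ribosomal protein shares were 11.9%, 9.52%, 7.01% and 9.43% inside and 11.8%, 10.5%, 7.96% and 11% outside. Their median Neat1 shares were 0.0764%, 0.0632%, 0.0967% and 0.0932% inside and 0.0620%, 0.0456%, 0.0699% and 0.0679% outside, higher inside in each library. At the muscle limit, 8 and 12 Malat1-rich cells of H3WT 5-Aza and H3R26C 5-Aza had 0.5% to 1% muscle genes, and 3 and 9 cells set aside had 1% to 2%, with median Ttn shares of 4.24% and 8.96% inside and 5.90% and 6.72% outside.

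Markers of other cell types differed by list. The 7 endothelial markers, among them Tek as the most abundant, summed to 11.8, 11.3, 19.7 and 15.5 CPM against 6.80, 8.89, 5.97 and 11.4 CPM in comparison cells. The 8 blood markers summed to 2.14, 12.2, 4.65 and 11.8 CPM against 7.58, 12.1, 4.97 and 15.7 CPM, and 0 genes of either list reached the minimum level. The 8 neural and glial markers summed to 58.9, 83.2, 53.4 and 117 CPM against 31.4, 42.3, 23.8 and 41.9 CPM in comparison cells. Nearly all of this was Map2, a microtubule-associated protein, at 52.4, 73.6, 49.9 and 111 CPM, while Rbfox3 and Snap25, which mark neurons, were at 0. The 7 osteoblast markers summed to 74.9, 66.2, 68.5 and 93.0 CPM against 51.9, 43.7, 45.3 and 57.9 CPM, mostly Runx2, a transcription factor, with Sp7 at 0. The part of such cells in the results was not tested. The 13 adipocyte markers summed to 247, 312, 314 and 202 CPM against 189, 362, 263 and 224 CPM in comparison cells, with Fabp4, a lipid carrier, at 6.42, 58.4, 47.6 and 30.1 CPM. The 10 mesenchymal surface and lineage genes tested had medians of 0.10, 0.10, 0.54 and 0.52. Pdgfra, a receptor of mesenchymal progenitors, was at 164, 189, 355 and 363 CPM against 108, 120, 119 and 156 CPM, whereas Ly6a, a short surface antigen gene, was at 188, 439, 510 and 600 CPM against 617, 1095, 696 and 1648 CPM. Stress lists were near or below 0, with medians of -0.33, -0.28, -0.06 and -0.53 for 9 genes of the integrated stress response and of -0.37, -0.45, -0.38 and -0.74 for 8 heat shock genes. The 4 death regulators tested, Mcl1, Xiap, Cflar and Ripk1, had medians of 0.49, 0.46, 0.70 and 0.76. The 10 interferon-stimulated genes had medians of -0.72, -0.80, -0.44 and -1.03, led by Ifitm3, a viral restriction factor, at 109, 332, 275 and 585 CPM against 323, 745, 661 and 1653 CPM. The 5 genes of G2 and mitosis tested had medians of -1.24, -0.99, -2.03 and -1.66, beside all-gene medians of -0.13, -0.23, 0.03 and -0.17. Without Ttn-high cells these 5 had -0.90 in H3WT 5-Aza and -1.51 in H3R26C 5-Aza. The 6 genes that passed the minimum level without those cells had medians of -0.72, -0.31, -2.06 and -0.96. With cells of 5000 to 10000 UMIs the median of H3WT 5-Aza was 0.16 and that of H3R26C 5-Aza -0.47, so the first changed direction. In H3WT DMSO, with 20 Malat1-rich cells left, the median of -6.06 depends on the 1 CPM added and is not read as a fold. With at most 10% mitochondrial UMIs the medians of H3WT DMSO and H3R26C DMSO were -4.06 and -3.51, on few UMIs. Without these limits Mki67 and Top2a were above 0 in H3WT DMSO, as given above.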

How the data were processed

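Single-cell RNA was measured in 4 droplet libraries, 1 per genotype and treatment. The authors deposited whole-number UMI counts per gene and barcode, made with Cell Ranger (6.1.0 per the file headers) on mm10. Seurat 4 is also named in the submitters' processing notes. Whether intronic reads or strand were counted is not given in the sources used here. Here, UMIs were summed per gene over Malat1-rich and comparison cells of each library and scaled to CPM, and log2 ratios took a pseudocount of 1 CPM. A gene was used where its 8 sums averaged 50 CPM or more, without Malat1 and the 6 muscle genes of the rule. A gene low in comparison cells could thus pass through its level in Malat1-rich cells alone, which favours high ratios. No doublets were removed. With 1 library per condition and cells chosen on the readout, no test was made and no p-value is given, and cells are not replicates. Shares have Clopper-Pearson intervals, and ratios of counts have exact conditional intervals, taken without the pseudocount.

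The members, the gene lists and the limits were chosen with earlier results of these data known. Genes were named as the 3 markers, the 15 genes highest and the 15 lowest over all 4 libraries, the 5 genes each way with the largest genotype difference per treatment, and the most abundant members of the lists. Other list members, and the Ttn-high subset, were named after their values were seen. Of the 15 lowest genes, 1 is not reported here. Genes were matched by identifier to GENCODE M21 (GRCm38). Pairs of libraries shared 24 to 58 barcodes of kept cells. Alternatives tried were other limits on Malat1, depth, genes and mitochondrial share, thinning to 5000 UMIs, other pseudocounts, folds, minimum levels, scalings and comparison cells, and leaving out each library. Python 3.11.15, numpy 2.4.6, pandas 2.3.3, scipy 1.17.1 and matplotlib 3.10.9 were used.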

Additional observations from a re-analysis of the deposited data

Results flagged for a closer look

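Lox, which crosslinks collagen, had log2 ratios of Malat1-rich over comparison cells of -0.22 in H3WT DMSO and -0.24 in H3WT 5-Aza, and of 1.80 in H3R26C DMSO and 0.13 in H3R26C 5-Aza, so that the sign was opposite between genotypes at both treatments. The difference was not tested. With at most 10% mitochondrial UMIs the value of H3WT DMSO was 0.07, and without Ttn-high cells that of H3WT 5-Aza was 0.08.

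Malat1 was also at 3% or more in barcodes that the cell filter left out. These were 92 of 2529 barcodes left out in H3WT DMSO (3.64%) and 321 of 9009 in H3WT 5-Aza (3.56%). In H3R26C DMSO they were 133 of 1813 (7.34%, 6.18% to 8.63%) and in H3R26C 5-Aza 578 of 4491 (12.9%, 11.9% to 13.9%). Their median mitochondrial share was 39.0%, 17.1%, 26.4% and 7.23% in the same order. Of them 70, 301, 128 and 571 were under 5000 UMIs, and 85, 135, 90 and 47 were over 20% mitochondrial UMIs, so some failed both limits.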

How the results depend on the processing

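Shares of Malat1-rich cells are given for H3WT DMSO, H3WT 5-Aza, H3R26C DMSO and H3R26C 5-Aza in turn. They were 5.26%, 7.49%, 5.14% and 8.24% with Malat1 at 2% or more, and 0.836%, 2.19%, 0.423% and 3.12% at 5% or more. They were 1.56%, 4.53%, 2.27% and 8.75% with at least 1000 UMIs and 500 genes, 1.23%, 1.87%, 0.900% and 1.74% with at least 10000 UMIs and 2500 genes, and 0.768%, 2.72%, 1.2% and 3.52% with at most 10% mitochondrial UMIs. The share was higher after 5-Aza than with DMSO in both genotypes under each of these settings.

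Counts of genes higher and lower in all 4 libraries (163 and 164) were 502 and 762 at a fold of 1.5. The number higher was 300.0 with a mean of at least 20 CPM and 416 with at least 5 CPM. They were 321 and 29 with CPM computed without Malat1, mitochondrial and muscle genes. Over the fixed set of 3496 genes tested, as given above, they were 276 and 29 under that scaling. With the median ratio of each library set to 0 the number lower was 31. They were 365 and 633 with Malat1 at 5% or more, 250.0 and 323 with cells of 5000 to 10000 UMIs, 66 and 24 with at most 10% and 16 and 5 with at most 5% mitochondrial UMIs. The last setting left 6, 71, 13 and 105 Malat1-rich cells. Leaving out each library gave 164 to 253 higher and 167 to 351 lower, both largest without H3WT DMSO.

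The 204 log2 ratios and list medians past 2-fold, each recomputed under 8 settings, gave 1632 values, of which 8 had the other sign. With 5000 to 10000 UMIs Ube2c (0.16) and Ccl2 (0.18) of H3WT 5-Aza and Pi15 (-1.49) and Tnxb (-0.90) of H3WT DMSO did, where 122 and 20 Malat1-rich cells were left. Ankrd1 did so without Ttn-high cells, at -0.93 in H3WT 5-Aza and -1.02 in H3R26C 5-Aza, and in H3R26C DMSO with Malat1 at 5% or more (-0.29). The skeletal muscle list of H3R26C 5-Aza had a median of -0.18 without Ttn-high cells, over the 4 genes that gave 3.55 with them. The cause of the other changes was not tested. Depth limits the genes at a few UMIs in the DMSO libraries, which held the fewest Malat1-rich cells. No paired analysis was possible because there was 1 library for each genotype and treatment.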
